A study of Mus musculus with 14 samples.

Results

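Lin28b, Plag1 and Igf2bp3 were compared as a group of 3 oncofetal genes, that is, genes with high levels in the embryo and fetus and low levels in most adult tissues. They were found by gene symbol among the 3533 genes of the loss-of-function experiment, and 3 of 3 were there. All 3 were higher in the EZH2 LOF tumors than in the EZH2 WT tumors, Lin28b by 23.8-fold, Plag1 by 16.9-fold and Igf2bp3 by 6.94-fold, and in each the lowest EZH2 LOF tumor lay above the highest EZH2 WT tumor. The table lists only genes that the authors had called between these same groups, so a gene had to differ to be in it, and the tests below are not independent of that choice.

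RNA was sequenced from 14 murine diffuse pontine gliomas of C57BL/6 mice that carry Nestin-Tv-a, a transgene by which Nestin-positive cells take up avian RCAS viruses. The 4 EZH2 LOF tumors (replicates 13 to 16) came from Nestin-Tv-a; p53f/f;Ezh2f/f mice and the 3 EZH2 WT tumors (replicates 1 to 3) from Nestin-Tv-a; p53f/f;Ezh2wt mice. Both groups received RCAS-Cre and RCAS-PDGF-B, so p53 was deleted in both and the floxed Ezh2 exons in the EZH2 LOF group alone. The gain-of-function experiment set 4 EZH2 GOF tumors (Nestin-Tv-a;Ezh2Y641F/+ with RCAS-Cre) against 3 EZH2 WT RCAS-Y tumors (labelled Nestin-Tv-a;Ezh2wt, given the control virus RCAS-Y), both with RCAS-PDGF-B and a short hairpin against p53. By the study's PCR the deletion of Ezh2 was not complete, and ages are not given in the labels. By the study's RNA sequencing most EZH2 GOF tumors did not show expression of the mutant allele. The paper calls the reasons unclear and proposes that limited detection may be among them. Ezh2 itself was not analysed here, so neither the deletion nor the mutant allele was checked in these libraries. Nothing in the sources says whether replicates came from separate litters, and p-values measure the spread between these tumors. Because whole tumors were sequenced, more cells that express a gene and more RNA per cell cannot be told apart.

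EZH2 is the enzyme of Polycomb repressive complex 2 that methylates lysine 27 of histone H3, a mark that keeps developmental genes silent. LIN28B is an RNA-binding protein that blocks the maturation of let-7 microRNAs, which in turn repress many fetal and growth genes, Lin28b among them. PLAG1 is a zinc-finger transcription factor known to activate the fetal growth factor gene Igf2. IGF2BP3 belongs to a family of RNA-binding proteins that hold and stabilise target mRNAs, first described for Igf2 mRNA.

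Values are normalized counts, that is, reads per gene scaled by the size factor of the library. Depth differed between the groups. The size factors were 0.218, 0.467, 1.36 and 0.838 in EZH2 LOF replicates 13, 14, 15 and 16, against 1.80, 2.64 and 1.93 in EZH2 WT replicates 1, 2 and 3, and 1 read was worth 0.736 to 4.58 normalized counts in EZH2 LOF and 0.379 to 0.557 in EZH2 WT libraries. The reads behind each of the 3 genes are therefore given below, beside the normalized values. A call was an adjusted p under 0.05 from limma on log2(value + 1), adjusted over the 13391 genes that the authors had tested. By this rule 31.2% of the table's genes were higher and 29.7% lower in EZH2 LOF tumors.

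Lin28b (ENSMUSG00000063804, minus strand of chr10:45376618-45470201 in mm10) had 201.7, 171.3, 144.9 and 138.3 normalized counts in EZH2 LOF replicates 13, 14, 15 and 16, against 8.35, 10.2 and 2.07 in EZH2 WT replicates 1, 2 and 3. The EZH2 LOF tumors lay close together, all far above the EZH2 WT tumors, among which replicate 3 stood lowest. The mean was 164 ± 28.8 in EZH2 LOF and 6.89 ± 4.28 in EZH2 WT tumors (SD, n = 4 and 3). The log2 fold change was 4.57 (SE 0.42, adjusted p = 0.000834, limma), the third largest of the 3533 genes. The lowest EZH2 LOF value was 13.5 times the highest EZH2 WT value.

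Plag1 (ENSMUSG00000003282, minus strand of chr4:3901157-3938405) had 128.3, 64.2, 80.2 and 94.2 normalized counts in EZH2 LOF replicates 13 to 16, against 6.12, 6.07 and 4.14 in EZH2 WT replicates 1 to 3. The EZH2 WT tumors were nearly alike, and the EZH2 LOF tumors spread over a 1.998-fold range with replicate 13 highest and replicate 14 lowest. The mean was 91.7 ± 27.3 in EZH2 LOF and 5.44 ± 1.13 in EZH2 WT tumors (SD, n = 4 and 3), with a log2 fold change of 3.82 (SE 0.31, adjusted p = 0.000432, limma). The lowest EZH2 LOF value was 10.5 times the highest EZH2 WT value, and the gene ranked 13 by log2 fold change.

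Igf2bp3 (ENSMUSG00000029814, minus strand of chr6:49085217-49214954) had 105.4, 81.4, 187.6 and 161.0 normalized counts in EZH2 LOF replicates 13 to 16, against 27.3, 15.5 and 15.01 in EZH2 WT replicates 1 to 3. Here replicates 15 and 16 were the high EZH2 LOF tumors, and replicate 1 was the high EZH2 WT tumor. The mean was 134 ± 49.0 in EZH2 LOF and 19.3 ± 6.94 in EZH2 WT tumors (SD, n = 4 and 3). The log2 fold change was 2.71 (SE 0.34, adjusted p = 0.00233, limma), rank 45 in the table. The gap between the groups was the narrowest of the 3 genes, with a lowest EZH2 LOF value of 2.98 times the highest EZH2 WT value.

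Such a separation was common in this table. Of its genes, 41.9% were higher in every EZH2 LOF tumor than in any EZH2 WT tumor, and no more is read from it for the 3 genes than their values show. None of the 50-base words of their exons occurred in another annotated gene, so no whole 50-base read matches another annotated gene exactly. Copies that differ by a base, and copies that are not annotated, were not looked for.

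**Figure D1:**
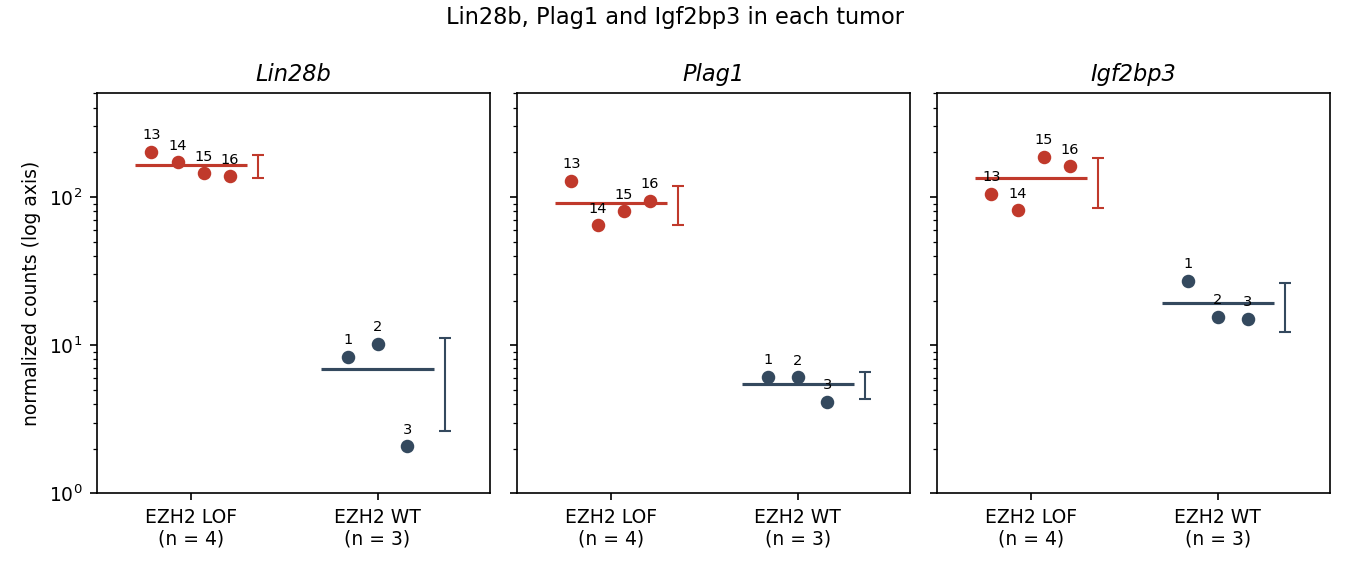
Normalized counts of Lin28b, Plag1 and Igf2bp3 (log axis) in the 4 EZH2 LOF and 3 EZH2 WT tumors. Points are tumors with their replicate numbers, horizontal lines are means and the bars beside them the SD. In each panel the 4 EZH2 LOF tumors lie above the 3 EZH2 WT tumors, with the widest gap for Lin28b and the narrowest for Igf2bp3.

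Since the EZH2 LOF libraries were shallower, the whole reads behind each value were recovered. Lin28b had 44, 80, 197 and 116 reads in EZH2 LOF replicates 13 to 16, against 15, 27 and 4 in EZH2 WT replicates 1 to 3. Plag1 had 28, 30, 109 and 79 reads in the EZH2 LOF libraries and 11, 16 and 8 in the EZH2 WT libraries. Every EZH2 LOF library thus held more reads of both genes than any EZH2 WT library did, although each had the lower size factor. Igf2bp3 had 23, 38, 255 and 135 reads in EZH2 LOF libraries, against 49, 41 and 29 in EZH2 WT libraries, so its 2 shallowest EZH2 LOF libraries held fewer reads than 2 of the EZH2 WT libraries and were higher only per depth. EZH2 LOF replicate 15, whose depth was nearest to that of the EZH2 WT libraries, held more reads of all 3 genes than any EZH2 WT library.

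**Figure D2:**
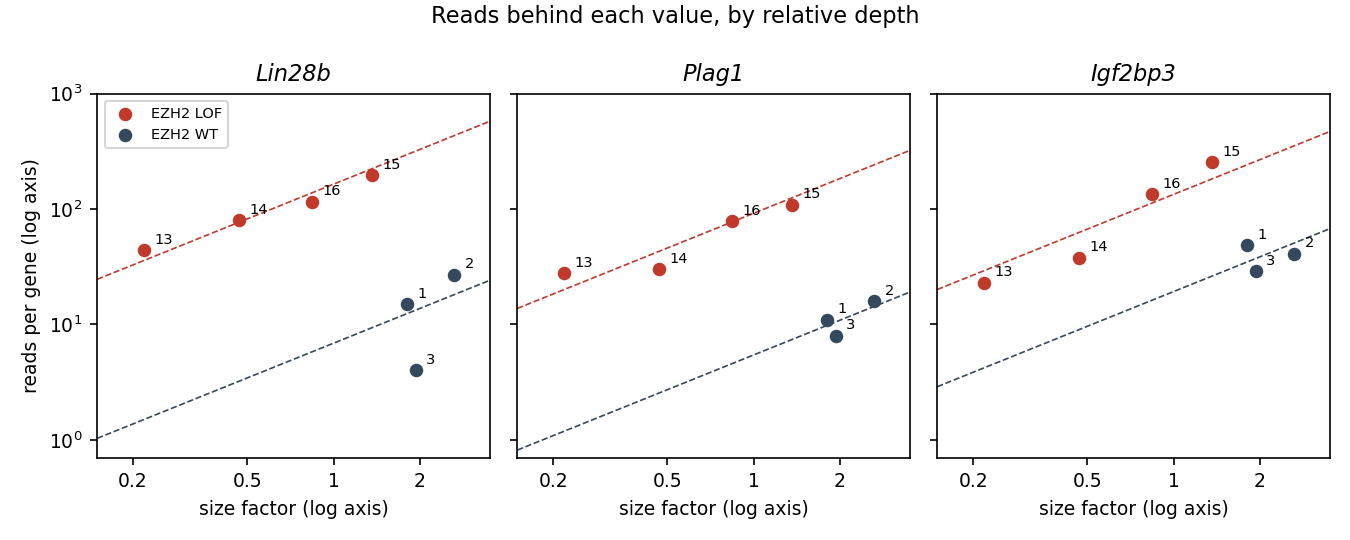
Recovered reads of each gene (log axis) against the size factor of the library (log axis). Points are the 4 EZH2 LOF and 3 EZH2 WT libraries with their replicate numbers, and dashed lines are the reads that the mean level of each group would give at that depth. EZH2 LOF replicate 15, at a size factor of 1.36, held 197 Lin28b, 109 Plag1 and 255 Igf2bp3 reads, above every EZH2 WT library.

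Without both of the shallowest libraries, EZH2 LOF replicates 13 and 14, the log2 fold change was 4.38 for Lin28b (adjusted p = 0.0208), 3.79 for Plag1 (adjusted p = 0.0115) and 3.16 for Igf2bp3 (adjusted p = 0.0133, all limma). Among listed genes that were low in EZH2 WT tumors, the shallowest library also had the highest median level. A gene so low there is listed only if called, so the gap between the groups below was largely set by that choice. Over the 155 table genes with an EZH2 WT mean under 10, the median level was 32.1, 19.3, 19.9 and 21.5 normalized counts in EZH2 LOF replicates 13 to 16 against 6.12, 4.93 and 5.69 in EZH2 WT replicates 1 to 3.

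The spread between tumors is given beside the spread that counting alone gives. For Lin28b the coefficient of variation was 17.6% in EZH2 LOF and 62.1% in EZH2 WT tumors, where counting alone gives 12.05% and 25.98%. For Igf2bp3 it was 36.6% in EZH2 LOF and 36.0% in EZH2 WT tumors, with 11.7% and 16.1% from counting. For Plag1 it was 29.7% in EZH2 LOF tumors against 16.3% from counting, and 20.8% in EZH2 WT tumors, which is under the 29.7% that so few reads give. The difference between the 3 EZH2 WT tumors in Plag1 was therefore not detectable at this depth.

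The levels of the 3 genes can be compared once they are set per kilobase of exon. On this scale the EZH2 LOF means were 18.1 for Lin28b, 16.4 for Igf2bp3 and 10.8 for Plag1, and the EZH2 WT means were 0.760 for Lin28b, 2.36 for Igf2bp3 and 0.641 for Plag1, all in normalized counts per kilobase. Igf2bp3 was thus the highest of the 3 in EZH2 WT tumors, and Lin28b and Igf2bp3 were near each other in EZH2 LOF tumors.

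Within a group, the 3 genes did not share an order of tumors. As log2 deviations from the group mean, Lin28b stood at 0.31, 0.08, -0.16 and -0.23 in EZH2 LOF replicates 13 to 16. Igf2bp3 stood at -0.27, -0.64, 0.56 and 0.34 in the same tumors, so the pair of tumors above the mean for Lin28b was the pair below it for Igf2bp3. Plag1 stood at 0.53, -0.46, -0.15 and 0.08, yet another order. Among EZH2 WT tumors, replicate 3 was lowest in all 3 genes, at -1.16 for Lin28b, -0.31 for Plag1 and -0.29 for Igf2bp3. With 4 and 3 tumors in clearly separate groups, a correlation across tumors cannot be tested and none is given.

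The sizes of the changes are described by the log2 ratio of a pair within each library. With 35 ways to split 7 tumors, 0.0571 is the smallest p that the exact permutation test can give, so this test could not show at 0.05 whether the folds differ, and the values stand as a description. The Lin28b to Igf2bp3 ratio averaged 0.35 ± 0.75 in EZH2 LOF and -1.51 ± 0.92 in EZH2 WT tumors (SD, n = 4 and 3), a difference of 1.86. Without EZH2 LOF replicates 13 and 14 this difference was 1.22. The Plag1 to Igf2bp3 ratio averaged -0.51 ± 0.64 in EZH2 LOF and -1.62 ± 0.38 in EZH2 WT tumors, a difference of 1.11. In both pairs the 4 EZH2 LOF tumors lay above the 3 EZH2 WT tumors, for Plag1 to Igf2bp3 by only a little (-1.22 in EZH2 LOF replicate 15 and -1.23 in EZH2 WT replicate 2). The Plag1 to Igf2bp3 difference was 0.63 without EZH2 LOF replicates 13 and 14, and 0.70 with a pseudocount of 5, where the groups overlapped. The Lin28b to Plag1 ratio overlapped, with 0.86 ± 0.38 in EZH2 LOF and 0.11 ± 0.75 in EZH2 WT tumors, a difference of 0.76.

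**Figure D3:**
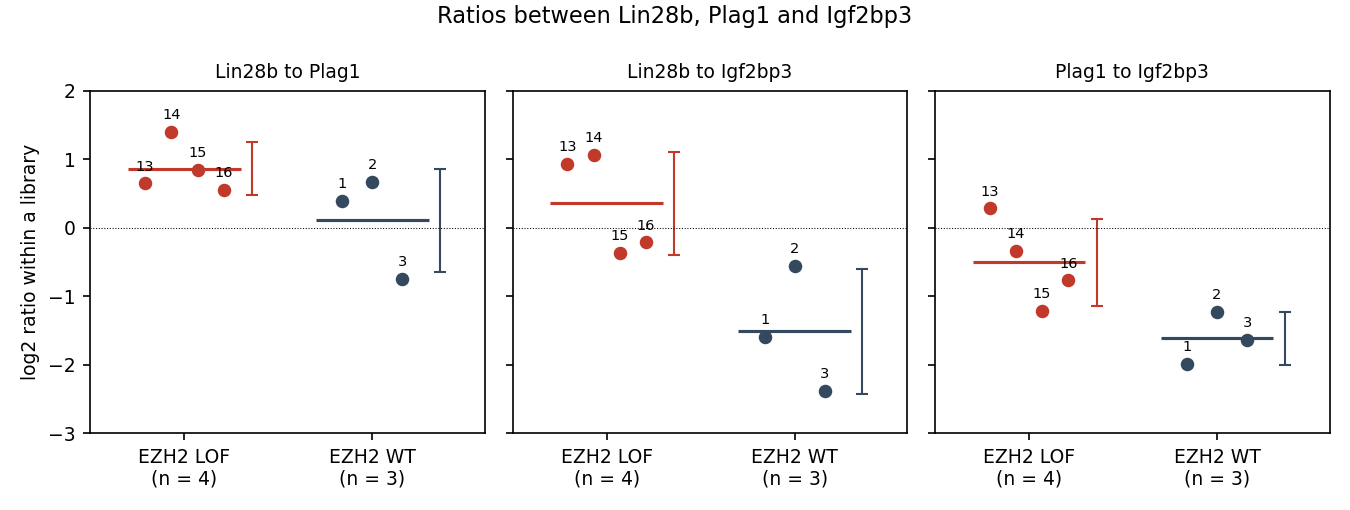
Log2 ratio of 2 genes within a library, for each pair of Lin28b, Plag1 and Igf2bp3, in the 4 EZH2 LOF and 3 EZH2 WT tumors. Points are tumors with their replicate numbers, lines are means and the bars beside them the SD. EZH2 LOF means lie above EZH2 WT means by 0.76, 1.86 and 1.11 from left to right.

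Lin28b and let-7 repress each other, and the let-7 family binds its targets through its seed, bases 2 to 8 of the mature RNA. Shown are let-7a, let-7c and miR-98, as 3 of the 10 mature mouse names that share the seed (RefSeq, GRCm38.p6), with the seed in capitals.
let-7a: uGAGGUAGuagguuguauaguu
let-7c: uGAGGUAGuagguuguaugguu
miR-98: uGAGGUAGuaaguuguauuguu

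The match to this seed, CTACCTC on the transcript strand alone, was looked for in the longest annotated 3′ UTR of each gene (GENCODE M21, mm10). Lin28b held 4 matches in 4445 bases, which only 3 of 1094 UTRs at least as long (0.274%), read to the same length, equalled or exceeded, the gene itself included. Igf2bp3 held 1 match in 2119 bases, where 12.6% of UTRs read to that length hold at least 1. Plag1 held 0 in 2694 bases, where 15.5% of UTRs hold at least 1. The paralog Igf2bp2 held 1 match in 1784 bases, where 10.7% hold at least 1. The sites are shown to set the genes side by side, each as the 14 bases before the match, the match in capitals and the base after it. An A in that last place, as in the first Lin28b site and those of Igf2bp3 and Igf2bp2, extends the match to the form known as 8mer. A match is a string of letters and not a measured site, and mature let-7 was not measured in these libraries.
Lin28b, chr10:45381022-45381043: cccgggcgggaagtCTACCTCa
Lin28b, chr10:45378648-45378669: atacttgttagtaaCTACCTCt
Lin28b, chr10:45378476-45378497: tttacagcacatggCTACCTCc
Lin28b, chr10:45377060-45377081: aatgatggcaccgaCTACCTCt
Igf2bp3, chr6:49086787-49086808: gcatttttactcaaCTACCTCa
Igf2bp2, chr16:22059473-22059494: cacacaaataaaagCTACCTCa

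**Figure D4:**
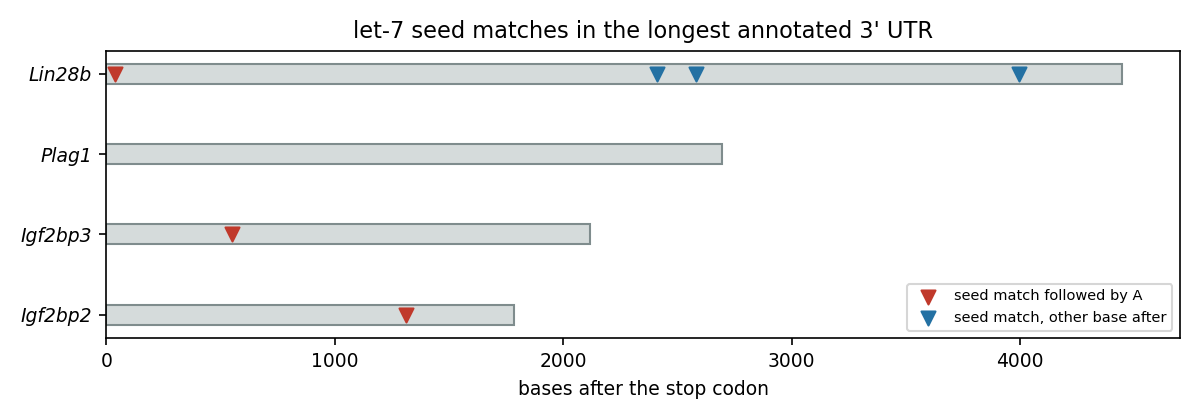
Matches to the let-7 seed in the longest annotated 3′ UTR of Lin28b, Plag1, Igf2bp3 and Igf2bp2. The x axis is the distance from the stop codon in bases, bars are the UTRs to scale, red triangles are matches followed by an A and blue triangles other matches. Lin28b holds 4 matches, Igf2bp3 and Igf2bp2 hold 1 each and Plag1 holds 0.

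The promoters of Igf2bp3 and Lin28b differed in base composition, while that of Plag1 was not analysed here. Both are shown with each CG pair in capitals because CG-rich promoters are the ones at which Polycomb complexes are known to act in other cells, while no binding or methylation was measured here. Each window runs from 250 bases before to 50 bases after the RefSeq start (GRCm38.p6, minus strand). The Igf2bp3 window held 25 CG pairs and 60.3% G and C, and 18.4% of 32851 mouse windows of this length held as many. The Lin28b window held 8 CG pairs and 39% G and C, near the median of 7 pairs. For Lin28b, GENCODE M21 also places a start further upstream, which this window does not cover.
Igf2bp3, chr6:49214905-49215204: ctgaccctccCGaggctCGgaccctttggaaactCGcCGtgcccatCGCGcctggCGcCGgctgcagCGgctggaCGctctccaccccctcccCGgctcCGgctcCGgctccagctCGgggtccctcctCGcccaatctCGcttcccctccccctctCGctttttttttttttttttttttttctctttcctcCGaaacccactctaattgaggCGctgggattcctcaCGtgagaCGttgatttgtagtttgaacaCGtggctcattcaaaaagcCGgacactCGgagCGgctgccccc
Lin28b, chr10:45470152-45470451: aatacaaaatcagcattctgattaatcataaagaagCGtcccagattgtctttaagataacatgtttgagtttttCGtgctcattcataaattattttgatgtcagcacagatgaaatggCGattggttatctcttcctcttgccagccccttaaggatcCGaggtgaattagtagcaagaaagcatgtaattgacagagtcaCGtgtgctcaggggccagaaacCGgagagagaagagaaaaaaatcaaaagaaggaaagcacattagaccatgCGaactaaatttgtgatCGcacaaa

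The other genes of the pathways were taken from 5 lists of 101 genes, of which 35 were in the table. Of these, 25 were higher in EZH2 LOF tumors, 4 were lower and 6 did not pass, with a median log2 fold change of 0.89. Without the 3 genes themselves, 22 of 32 were higher and 4 lower, with a median of 0.88. Of all 3533 genes in the table, a total of 1102 were higher and 1048 lower, with a median of -0.33. Counts fell with fewer libraries, on the lists and over the whole table. Without EZH2 WT replicate 2, 14 on the lists were higher and 0 lower, against 458 and 357 in the whole table. Without EZH2 LOF replicate 16 only 1 on the lists was lower, against 416 in the whole table. Without EZH2 LOF replicates 13 and 14, 10 on the lists were higher and 0 lower, against 182 and 89 in the whole table. Passing genes on the lists that kept their call without any 1 library numbered 14 of 29.

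Of 19 listed oncofetal genes 10 were in the table, which holds called genes only, and these 10 were higher in EZH2 LOF tumors, with a median log2 fold change of 2.32. Beside Lin28b, Plag1 and Igf2bp3 they were H19, Trim71, Igf2bp2, Gpc3, Peg10, Plagl1 and Plagl2. H19, the imprinted noncoding RNA next to Igf2, had 169.6, 224.8, 345.0 and 336.3 normalized counts in EZH2 LOF replicates 13 to 16, against 32.9, 25.4 and 37.8 in EZH2 WT replicates 1 to 3. H19 was 8.40-fold higher (adjusted p = 0.000834, limma), with EZH2 LOF replicates 15 and 16 highest, as for Igf2bp3. Peg10, an imprinted gene derived from a retrotransposon, was 2.58-fold higher with 636 ± 73.5 in EZH2 LOF and 246 ± 11.1 in EZH2 WT tumors (adjusted p = 0.000834). Trim71, a fetal RNA-binding protein and let-7 target, had 63.1 ± 16.2 in EZH2 LOF and 8.27 ± 3.68 in EZH2 WT tumors, 7.63-fold higher (adjusted p = 0.00274). The list was drawn up with earlier results of these tumors known, so its direction is not independent evidence.

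The family members of the 3 genes were higher by less. Igf2bp2, the paralog of Igf2bp3, had 261, 295, 352 and 317 normalized counts in EZH2 LOF replicates 13 to 16, against 45.1, 73.2 and 197 in EZH2 WT replicates 1 to 3. The groups did not overlap, but EZH2 WT replicate 3 stood well above the other two. The gene was 2.92-fold higher (log2 fold change 1.80, SE 0.40, adjusted p = 0.0173, limma), and the call was lost without EZH2 WT replicate 2 (adjusted p = 0.0664). Plagl1, an imprinted zinc-finger relative of Plag1, was 2.40-fold higher with 55.7 ± 21.5 in EZH2 LOF and 23.2 ± 5.05 in EZH2 WT tumors (adjusted p = 0.0471), and it lost its call in 6 of 7 fits that left out 1 library, with adjusted p up to 0.131. Plagl2, the third PLAG factor, was 1.88-fold higher, with 88.4 ± 8.46 in EZH2 LOF and 47.0 ± 11.8 in EZH2 WT tumors (adjusted p = 0.0247), and lost its call in 3 of 7 such fits. Gpc3, a cell-surface proteoglycan of the fetus, was 4.63-fold higher with 30.5 ± 16.05 in EZH2 LOF and 6.59 ± 2.02 in EZH2 WT tumors (adjusted p = 0.0235), where replicates 13 and 14 carried the higher EZH2 LOF values of 45.8 and 42.8, and it lost its call in 4 of 7 fits. The paralogs Lin28a and Igf2bp1, the Plag1 target Igf2 and the let-7 target Hmga2 were not analysed here.

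Among listed let-7 targets, 15 of 47 were in the table, and 13 of these were higher, 0 lower and 2 did not pass, with a median log2 fold change of 1.17. Nr6a1, an orphan nuclear receptor of the early embryo, had 132.9, 85.7, 97.8 and 84.7 normalized counts in EZH2 LOF replicates 13 to 16 and 17.8, 16.7 and 10.3 in EZH2 WT replicates 1 to 3. Nr6a1 was 6.71-fold higher (adjusted p = 0.00116, limma), with no overlap of the groups. Cdk6, a cyclin-dependent kinase of the G1 phase, had 316 ± 65.0 in EZH2 LOF and 88.8 ± 28.2 in EZH2 WT tumors and was 3.56-fold higher (adjusted p = 0.00255). Igf1r, the IGF receptor, had 1439 ± 127 in EZH2 LOF and 645 ± 123 in EZH2 WT tumors and was 2.23-fold higher (adjusted p = 0.00218). Both kept their call without any 1 library and without EZH2 LOF replicates 13 and 14. Cdc25a, a phosphatase of the cell cycle, did not pass (log2 fold change 0.58, adjusted p = 0.0636), nor did the kinase gene Map4k3 (log2 fold change -0.38, adjusted p = 0.0723). Of the 15, 11 held at least 1 seed match in the longest annotated 3′ UTR and 4 held none. Among 21901 protein-coding genes 8.67% held at least 1. The list was made of known let-7 targets, so a larger share with matches followed from its choice. UTR length was not matched in this comparison.

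**Figure D5:**
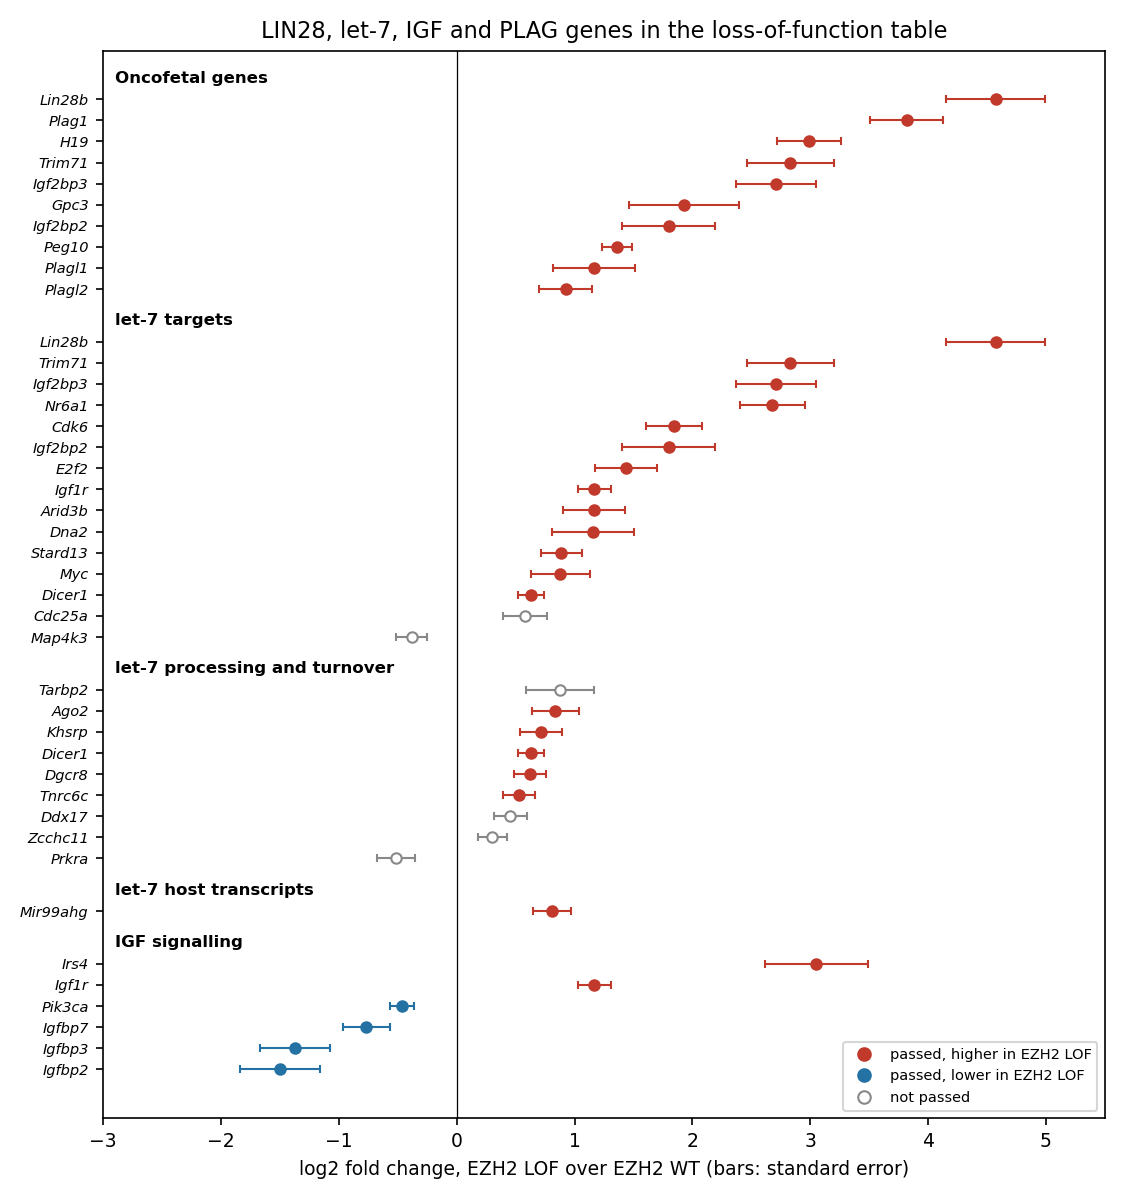
Log2 fold change of EZH2 LOF over EZH2 WT tumors for the genes of the 5 lists that were in the table, with the standard error as a bar. Filled red points were higher, filled blue points lower, open grey points did not pass, and a gene on several lists is drawn in each. The 10 oncofetal genes lie right of 0, led by Lin28b at 4.57, and the 4 genes that fell are all on the IGF list.

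Genes that process let-7 and other microRNAs moved by less. Of 22 listed, 9 were in the table, with 5 higher, 0 lower and 4 that did not pass, and a median log2 fold change of 0.62. Dicer1, which cuts the hairpin precursor and is itself a let-7 target, had 807 ± 40.3 in EZH2 LOF and 522 ± 52.2 in EZH2 WT tumors, 1.55-fold higher (adjusted p = 0.00847, limma). Dgcr8, the partner of the nuclear enzyme Drosha, had 353 ± 33.0 in EZH2 LOF and 229 ± 29.9 in EZH2 WT tumors and was 1.54-fold higher (adjusted p = 0.018). Ago2, which carries the mature microRNA, was 1.73-fold higher (adjusted p = 0.0232) and Khsrp, which binds precursors, 1.61-fold (adjusted p = 0.0248). Tnrc6c, a partner of the Argonaute proteins, was 1.42-fold higher (adjusted p = 0.0305). Dicer1 alone of these 5 passed in all 7 fits that left out 1 library, and without EZH2 LOF replicates 13 and 14 its adjusted p was 0.0667. Zcchc11, which uridylates let-7 precursors bound by LIN28, did not pass (log2 fold change 0.30, adjusted p = 0.119), nor did Tarbp2 (adjusted p = 0.0641). Ddx17, a helicase of the nuclear cutting step, had 3038 ± 251 in EZH2 LOF and 2223 ± 281 in EZH2 WT tumors and did not pass (adjusted p = 0.0517), and Prkra, a partner of Dicer1, had a log2 fold change of -0.52 (adjusted p = 0.0574).

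Of 6 listed let-7 host transcripts 1 was in the table. Mir99ahg, a noncoding RNA on that list whose interval in the table ends short of the nearby Mirlet7c-1 gene, had 257, 229, 249 and 215 normalized counts in EZH2 LOF replicates 13 to 16, against 149, 109 and 152 in EZH2 WT replicates 1 to 3. The transcript was 1.74-fold higher without overlap (log2 fold change 0.81, SE 0.16, adjusted p = 0.0125, limma), and passed in all 7 fits that left out 1 library, with adjusted p up to 0.046. Without EZH2 LOF replicates 13 and 14 it did not pass (adjusted p = 0.1). Host transcripts give no level of the mature microRNA.

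IGF signalling, onto which Plag1 and Igf2bp3 are known to act through Igf2, was the list with changes in both directions. Of 21 listed genes 6 were in the table, 2 higher and 4 lower, with a median log2 fold change of -0.62. The higher ones were Igf1r, given above, and Irs4, an adaptor of the insulin and IGF receptors, with 27.5, 29.98, 50.8 and 79.9 normalized counts in EZH2 LOF replicates 13 to 16, against 2.78, 5.31 and 5.17 in EZH2 WT replicates 1 to 3. Irs4 was 10.6-fold higher (adjusted p = 0.00406, limma). The lower ones included 3 secreted binding proteins of the family. Igfbp3 had 869 ± 249 in EZH2 LOF and 2323 ± 947 in EZH2 WT tumors (log2 fold change -1.38, adjusted p = 0.0163), and Igfbp2 had 400.3 ± 141 in EZH2 LOF and 1157 ± 469 in EZH2 WT tumors (log2 fold change -1.50, adjusted p = 0.0186). Igfbp7 had a log2 fold change of -0.77 (adjusted p = 0.0309) and Pik3ca, the catalytic subunit of PI3 kinase, of -0.46 (adjusted p = 0.0179). All 4 lower genes lost their call without EZH2 WT replicate 2, and their adjusted p reached 0.0818 at most without any 1 library.

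Genes whose pattern over the 7 libraries was most like that of each of the 3 were found by the root mean square difference of centred log2(value + 1) among the 3532 other genes of the table. For Lin28b they were Vax2, a homeobox gene of the ventral eye (0.31), Zdbf2, an imprinted gene (0.55), and Pax9, a paired-box gene (0.56), against a median of 2.49. Zdbf2 had 602 ± 30.9 in EZH2 LOF and 20.5 ± 10.2 in EZH2 WT tumors. For Plag1 they were the noncoding RNA Fendrr (0.34), Tchh (0.35) and the imprinted gene Magel2 (0.38), against a median of 2.08. Fendrr had 102 ± 39.98 in EZH2 LOF and 7.47 ± 0.788 in EZH2 WT tumors. For Igf2bp3 they were Lpar4, a receptor for lysophosphatidic acid (0.17), the LIM-homeobox gene Lhx2 (0.30) and Fzd2, a Wnt receptor (0.31), against a median of 1.56. Lpar4 had 73.3, 70.7, 137.6 and 128.8 normalized counts in EZH2 LOF replicates 13 to 16, against 25.1, 13.3 and 9.31 in EZH2 WT replicates 1 to 3, so it shared with Igf2bp3 the high replicates 15 and 16.

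None of the 3 genes was among the 3 nearest for another. By the same measure Plag1 was rank 6 for Lin28b (0.60) and Lin28b rank 18 for Plag1, while Igf2bp3 was rank 34 for Lin28b (1.15) and rank 36 for Plag1 (0.72). Seen from Igf2bp3, Plag1 was rank 117 and Lin28b rank 1247. Most of such a difference is the size of the change between groups, and the 7 points share their library depths.

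Of the genes around them, those within 1 Mb were compared. Around Lin28b the table held none. Chchd7, which lies 481 bases from Plag1 on the opposite strand and encodes a small mitochondrial protein, had 87.1, 40.7, 55.9 and 45.3 normalized counts in EZH2 LOF replicates 13 to 16, against 12.2, 23.9 and 12.9 in EZH2 WT replicates 1 to 3. Chchd7 was 3.499-fold higher without overlap (log2 fold change 1.75, SE 0.35, adjusted p = 0.0125, limma), and its highest tumor was replicate 13, as for Plag1. The kinase gene Lyn, on the other side of Plag1, was lower with 137 ± 20.3 in EZH2 LOF and 242 ± 50.2 in EZH2 WT tumors (adjusted p = 0.0207), and Impad1, on the side of Chchd7, did not pass (adjusted p = 0.0758). Near Igf2bp3 the splicing factor gene Tra2a was 1.73-fold higher (adjusted p = 0.00537) and Krba1 1.44-fold higher (adjusted p = 0.03), while Atp6v0e2, a subunit of the proton pump, had a log2 fold change of -0.57 (adjusted p = 0.0159). The 5 passing neighbours of Plag1 and Igf2bp3 were thus 3 higher and 2 lower.

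Markers of the tumor and of other cells also differed between the groups. Of 9 listed markers of glioma and oligodendrocyte precursor cells 2 were in the table, Olig2 and Pdgfra, with a sum of 11192 to 13359 normalized counts in EZH2 LOF and 17233 to 28544 in EZH2 WT tumors, so both groups carried them at high levels. For meningeal fibroblasts 3 of 6 were in the table and all were lower, with a sum of 124 to 503 in EZH2 LOF and 567 to 1590 in EZH2 WT tumors. Col3a1 made up most of it, at 101 to 479 in EZH2 LOF and 421 to 1257 in EZH2 WT tumors, where the groups overlapped. Dcn and Lum were lower without overlap. For microglia 1 of 8 was in the table and was lower, at 160 to 243 in EZH2 LOF and 313 to 835 in EZH2 WT tumors. For cartilage 5 of 6 were in the table, of which 4 were higher, with a sum of 5385 to 8706 in EZH2 LOF and 2920 to 4976 in EZH2 WT tumors. Most of this sum was Col11a1, at 4290 to 7024 in EZH2 LOF and 2692 to 4685 in EZH2 WT tumors, where the groups overlapped. Col2a1 was 14.9-fold, Col9a1 3.73-fold and Acan 3.52-fold higher without overlap, and Sox9 did not pass. None of the markers of germ and embryonic stem cells on the list, the cells best known for LIN28 proteins, was analysed here. The part of cell makeup in the levels of Lin28b, Plag1 and Igf2bp3 was not tested.

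Lin28b, Plag1 and Igf2bp3 were not analysed in the gain-of-function experiment, whose table held 294 genes. Of the listed genes it held 1, Igf2bp2. Igf2bp2 had 23.9, 31.4, 40.8 and 23.1 normalized counts in EZH2 GOF replicates 1 to 4, against 523, 284 and 21.8 in EZH2 WT RCAS-Y replicates 1 to 3. The groups overlapped, since EZH2 WT RCAS-Y replicate 3 was the lowest of all 7 tumors. The mean was 29.8 ± 8.23 in EZH2 GOF and 276 ± 251 in EZH2 WT RCAS-Y tumors (SD, n = 4 and 3). The log2 fold change of -2.33 (SE 0.996) did not pass (adjusted p = 1, limma), in a fit that called 4.08% of this table's genes lower and 0 higher, while 293 of them had an unadjusted p under 0.05. In EZH2 WT RCAS-Y replicate 1 a read was worth 10.7 normalized counts, and without that library the log2 fold change was -1.43 (adjusted p = 1). The 2 tables were normalized apart, so the levels of Igf2bp2 in them were not compared. The EZH2 GOF group is defined by genotype and virus. Expression of the mutant allele was not checked here, and by the study's RNA sequencing most of these tumors did not show it.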

How the data were processed

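Total RNA from 14 tumors was depleted of ribosomal RNA and sequenced as stranded single-end 50-base reads. By the submitters' processing notes and the study's methods, reads went through FastQC and Trim Galore, STAR placed them on mm10, HTSeq gave the gene counts and DESeq2 the test. No versions are stated in these sources. The authors deposited 1 table per experiment, limited to their calls (FDR under 0.05), with signal values that they made by dividing HTSeq counts by DESeq2 size factors. The tables also hold the authors' fold changes and p-values, which were not used, except that raw and adjusted p-values gave the number of genes tested (13391 and 16173). Of the 3553 lines of the loss-of-function table, 19 identifiers stand on several lines and 3533 genes were kept.

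Groups and replicate numbers came from the labels. The 3 genes, the gene lists and the tests were chosen with earlier results of these data known. Values were whole multiples of 1 step per library (100% of values, tolerance 0.001 reads). The step is the inverse of the size factor and gave the reads per gene. A coded check of the files accepted this for some of the libraries only, and for the rest it relies on the step found here. Reads in the listed genes, a part of each library, summed to 281847 to 1842891 in EZH2 LOF and 2763245 to 3685186 in EZH2 WT libraries. Replicate libraries differed by more than counting error. The chi-square per degree of freedom was 3.04 to 5.38 for pairs of EZH2 LOF and 26.3 to 46.9 for pairs of EZH2 WT libraries. This measure also rises with depth, which was lower in EZH2 LOF. It cannot tell separate tumors from separate preparations of the same tumor, so each library was counted as a sample of its own by its label.

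Groups were compared with limma 3.58.1 in R 4.3.3, on values as log2(value + 1) and with a mean-variance trend, two-sided, with Benjamini-Hochberg adjustment over all genes the authors tested, genes outside the table counting with a p of 1. The fits were tested on simulated data. Alternatives were pseudocounts of 0.5 and 5, a mean of at least 10, no trend, edgeR 4.0.16 (TMM or the authors' size factors) and DESeq2 1.42.0 on the recovered reads, adjustment over the listed genes alone, leaving out each library, and leaving out EZH2 LOF replicates 13 and 14. A mean of at least 50 was added after seeing the data. A fold is a ratio of group means, and log2 fold changes of low genes are understated by the pseudocount. Named genes were the 3 genes, up to 6 genes of each list with the smallest p and any against its list's direction, the 3 most alike in pattern, and genes within 1 Mb. Others on the lists (Plagl1, Plagl2, Gpc3, Igf2bp2, Tarbp2, Zcchc11, Cdc25a) were named after their values were seen. Exon lengths, 3′ UTRs and 50-base words came from GENCODE M21, and miRNAs and promoters from RefSeq, where 3532 of 3533 identifiers matched GENCODE.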

Additional observations from a re-analysis of the deposited data

Results flagged for a closer look

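In 36 groups of 4 tumors checked for a value far from the others, 2 held one, where chance alone flags about 1 in 20 groups. Trim71 was low in EZH2 LOF replicate 15, at 38.99 normalized counts against 68.7 to 73.9 in the other EZH2 LOF tumors. Khsrp was high in EZH2 LOF replicate 14, at 1049 normalized counts against 872 to 897 in the other EZH2 LOF tumors. Lin28b, Plag1 and Igf2bp3 had no such value.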

How the results depend on the processing

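Lin28b, Plag1 and Igf2bp3 kept their direction and call under all 17 alternatives each, but not all of these could have changed a call. The filter at a mean of 10 removed 0 genes, and adjustment over the listed genes alone can only lower an adjusted p. DESeq2 is the test by which the authors had listed the genes, and every fit used listed genes only. Without any 1 library their log2 fold changes ran from 3.99 to 4.93 for Lin28b, 3.64 to 3.97 for Plag1 and 2.52 to 2.97 for Igf2bp3 (adjusted p up to 0.00533, 0.00475 and 0.0127), and under the other settings from 3.89 to 4.70, 3.18 to 4.02 and 2.48 to 3.16. Scaling moved the median log2 fold change of the table from -0.33 to -0.31 at most. Over the whole table, adjustment over the listed genes alone gave 1694 higher and 1790 lower genes, and leaving out EZH2 LOF replicates 13 and 14 gave 182 and 89, where fewer libraries entered the fit. Without any 1 library the counts ran from 458 to 1048 higher and from 357 to 876 lower. On the 5 lists they ran from 14 to 26 higher and from 0 to 4 lower, and without replicates 13 and 14 they were 10 and 0. The pair ratios kept their sign, at 0.33 to 1.04 for Lin28b to Plag1, 1.43 to 2.34 for Lin28b to Igf2bp3 and 0.85 to 1.34 for Plag1 to Igf2bp3 without any 1 library. Under the other settings, with replicates 13 and 14 left out the lowest for each pair, they were 0.59 to 0.77, 1.22 to 1.96 and 0.63 to 1.19, and at a pseudocount of 5 the groups overlapped in Plag1 to Igf2bp3 and no longer did in Lin28b to Plag1. The Igf2bp2 difference in the gain-of-function experiment ran from -3.69 to -1.43 (adjusted p 0.215 to 1) without any 1 library.

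No paired analysis was possible because the EZH2 LOF and EZH2 WT groups share no replicate numbers. In the gain-of-function experiment same-numbered tumors did not deviate together (correlations -0.07, -0.18 and 0.01), and with a replicate block, which leaves EZH2 GOF replicate 4 without a partner, the Igf2bp2 log2 fold change was -2.22 (adjusted p = 1) and 64 in place of 12 genes of the table were called. A filter at a mean of 10 removed 0 genes. Depth limits the EZH2 WT levels of Lin28b and Plag1 most, which rest on 4 to 27 reads a library.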

Other observations

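Genes that carry several let-7 seed matches in their longest annotated 3′ UTR were counted across the loss-of-function table, as a description with no test. Of 13 genes with 3 or more matches 9 were higher in EZH2 LOF tumors and 1 was lower, with a median log2 fold change of 0.83. These 13 include Lin28b itself, as well as Trim71, Nr6a1 and Ago2 from the lists above, and no count was made without them. Of 52 with 2 or more, the same 13 among them, 28 were higher and 8 lower (median 0.68). Of 318 with 1 match, 101 were higher and 79 lower (median 0.46). Among 3069 genes with no match 913 were higher and 957 lower (median -0.38). UTR length moved with the matches, with medians of 5619, 4624.5, 2262 and 1296 bases in these 4 groups of genes, and its part was not tested.

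Nr6a1 held 8 matches, the most of the genes named here, and was 6.71-fold higher. Hic2, a transcriptional repressor with 4 matches, had 114 ± 53.5 normalized counts in EZH2 LOF and 45.4 ± 5.27 in EZH2 WT tumors (adjusted p = 0.0291, limma). Trim67, a ubiquitin ligase gene of the nervous system with 3 matches, had 527 ± 36.0 in EZH2 LOF and 246 ± 56.8 in EZH2 WT tumors (adjusted p = 0.00415). The gene that was lower, Zdhhc3, a palmitoyltransferase gene with 3 matches, had 379 ± 63.2 in EZH2 LOF and 552 ± 22.7 in EZH2 WT tumors (adjusted p = 0.0308). These genes were named after their values were seen. Plag1 holds no match, and its change lies between those of Lin28b and Igf2bp3, which hold 4 and 1. Whether the matches have a part in these changes was not tested.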
